A study of Rattus norvegicus with 10 samples.

Results

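The proteasome genes of rat prefrontal cortex were taken as every gene whose platform annotation is a single symbol that starts with Psma, Psmb, Psmc, Psmd, Psme, Psmf or Psmg, each read from its probe set of highest mean over the arrays. The rule found 46 of the 14217 genes that have such a probe set, and 42 of them passed the filter on low values (mean log2 of at least 3.99). The 46 comprised 13 genes of the 20S core, 17 of the 19S regulatory cap, 3 immunoproteasome catalytic genes, and 13 genes of activators, an inhibitor, assembly chaperones and partners. Psmc3ip and Psme3ip1 are in by their names and encode no proteasome subunit. Psmb6, the caspase-like catalytic subunit, and Psme3, an activator subunit, stand on this array only with other symbols on the same probe sets and so are not among the 46.

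The arrays held RNA from 10 untreated male Lewis rats, an inbred strain, 1 array per rat, so all rats form 1 group with the rat as replicate. The dissected tissue was frontal cortex (areas Fr1 and Fr2, olfactory bulb removed), taken 6 days after the last behaviour test. Each rat carries a score for sugar feeding, locomotion, startle to a sound, and prepulse inhibition (the damping of that startle by a weaker sound just before it), and 7 rats a plus maze score; neither units of the scores nor ages are stated. By its title, the study looked for a relationship of mRNA in the brain with behaviour among rats of nearly the same genome.

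The proteasome is the protease that degrades ubiquitin-tagged proteins in the cytosol and nucleus. Its barrel-shaped 20S core is built from rings of alpha subunits, which gate the entrance, and rings of beta subunits, of which Psmb5, Psmb6 and Psmb7 carry the active sites; the 19S cap binds ubiquitin, unfolds the substrate with its ATPases and feeds it into the barrel. Interferons induce replacements of the active subunits, Psmb8 for Psmb5, Psmb9 for Psmb6 and Psmb10 for Psmb7, which make the immunoproteasome that serves antigen presentation, while in neurons the constitutive form is known for its part in synaptic protein turnover.

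The promoters of the constitutive active-site genes Psmb5 and Psmb7 and of the 3 inducible genes Psmb8, Psmb9 and Psmb10 are shown. The reason is that every core gene passed the filter on low values and 2 of these 3 inducible genes did not. The RefSeq windows on the GRCr8 assembly run from base -250 to base 50 around the annotated start, without a base 0, and are written 5′ to 3′ on the gene's strand. Capitals mark 4 motifs found on either strand: CCAAT, the antioxidant response element core TGANNNNGC, the interferon-stimulated response element core GAAANNGAAA and the gamma-activated site TTCNNNGAA. Psmb5 lies at chr15:32047330-32047629 (minus strand), Psmb7 at chr3:42827421-42827720 (minus), Psmb10 at chr19:50743243-50743542 (minus), Psmb8 at chr20:4656982-4657281 (minus) and Psmb9 at chr20:4668750-4669049 (plus).
Psmb5: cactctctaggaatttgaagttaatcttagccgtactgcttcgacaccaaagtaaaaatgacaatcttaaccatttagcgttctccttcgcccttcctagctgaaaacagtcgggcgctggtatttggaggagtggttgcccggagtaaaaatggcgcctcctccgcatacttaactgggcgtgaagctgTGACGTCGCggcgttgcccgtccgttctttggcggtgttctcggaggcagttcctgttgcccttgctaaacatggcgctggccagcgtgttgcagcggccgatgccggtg
Psmb7: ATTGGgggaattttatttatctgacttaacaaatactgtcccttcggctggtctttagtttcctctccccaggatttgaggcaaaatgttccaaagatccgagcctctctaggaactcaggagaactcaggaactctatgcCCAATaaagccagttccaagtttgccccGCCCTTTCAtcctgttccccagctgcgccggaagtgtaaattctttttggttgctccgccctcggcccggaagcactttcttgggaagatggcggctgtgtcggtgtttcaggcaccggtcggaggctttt
Psmb10: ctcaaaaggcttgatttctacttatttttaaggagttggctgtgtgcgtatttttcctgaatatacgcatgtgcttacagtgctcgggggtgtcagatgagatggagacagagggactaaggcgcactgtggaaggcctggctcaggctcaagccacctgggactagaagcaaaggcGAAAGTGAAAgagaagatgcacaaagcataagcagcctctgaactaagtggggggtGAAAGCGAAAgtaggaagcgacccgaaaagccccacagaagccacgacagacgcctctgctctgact
Psmb8: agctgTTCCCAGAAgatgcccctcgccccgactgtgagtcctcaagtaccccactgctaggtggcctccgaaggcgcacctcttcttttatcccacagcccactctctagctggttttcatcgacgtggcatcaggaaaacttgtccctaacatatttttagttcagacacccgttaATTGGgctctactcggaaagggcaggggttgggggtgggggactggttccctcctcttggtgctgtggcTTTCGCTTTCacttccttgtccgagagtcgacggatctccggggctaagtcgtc
Psmb9: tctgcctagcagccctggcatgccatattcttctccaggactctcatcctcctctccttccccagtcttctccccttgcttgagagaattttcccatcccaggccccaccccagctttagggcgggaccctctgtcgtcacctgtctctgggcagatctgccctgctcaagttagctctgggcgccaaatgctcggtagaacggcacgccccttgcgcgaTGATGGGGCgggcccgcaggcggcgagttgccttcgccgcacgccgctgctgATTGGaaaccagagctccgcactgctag

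In these windows Psmb5 had TGANNNNGC at bases -60 to -52, and Psmb7 had it at -81 to -73 on the opposite strand with CCAAT at -109 to -105 and, on the opposite strand, at -250 to -246. Psmb10 had GAAANNGAAA at 2 places, -73 to -64 and -17 to -8. Psmb8 had GAAANNGAAA across the start, from -4 to 6 on the opposite strand, a TTCNNNGAA at -245 to -237 and a CCAAT on the opposite strand at -73 to -69. Psmb9 had TGANNNNGC at -30 to -22 and CCAAT on the opposite strand at 23 to 27. A match is only a run of letters, and a window without one says nothing about the factor.

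The table held a promoter for 42 of the 46 genes; Psma7, Psmd6, Psmd12 and Psmd14 had none. TGANNNNGC was present in 6 of 6 beta subunit promoters, 2 of 6 alpha and 7 of 14 cap promoters, against 40.5% of all 33469 promoter windows of this length. CCAAT was present in 9 of 12 core and 5 of 14 cap promoters, against 37.5% of all windows. GAAANNGAAA was present in 7 of the 42, against 3.92% of all windows. These were Psmb8, Psmb10, Psme2 (bases -53 to -44), the core genes Psma4 and Psmb3, the cap gene Psmd7 and the core chaperone Psmg4. The promoters of Psmb9 and Psme1, which interferon also induces, had no match. TTCNNNGAA was present in 4 of the 42, Psmb8 and the cap genes Psmc6, Psmd3 and Psmd7, against 8.87%. The motifs can overlap, as a CCAAT (-70 to -66) and a TGANNNNGC (-72 to -64) do in the promoter of Psma5, an alpha subunit.

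The deposited values are log2 expression summaries, in which a difference of 1 is a doubling. Array medians were 3.91 to 4.02 and upper quartiles 8.13 to 8.25, highest on the array of rat 2 (8.25) and lowest on those of rats 3 and 5 (both 8.13). In the neuronal check 6 of 7 excitatory markers were on the array and all 6 were kept, which fits the labelled tissue but does not single it out. Markers listed for striatal projection neurons were mostly kept too (9 of 11, Adora2a and Tac1 below the filter). Some of them were high in every rat, as Pde10a (11.67 or more) and Foxp1 (11.08 or more). Their mean centred log2 value varied by rat from -0.55 to 1.40, with rat 7 highest. Fewer cells of a type and less RNA per cell cannot be told apart in such tissue pieces.

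All 13 core genes were kept, and each varied little between rats. Across the core the lowest and highest rat differed by 1.17-fold to 1.31-fold, with a median of 1.22-fold. The SD between rats was 0.063 to 0.121 log2 (median 0.099). The 2494 genes with a mean in the range of the core genes had a median SD of 0.116 and a median span of 1.29-fold, and all 8483 genes tested 0.124 and 1.32-fold.

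Psmb5, the chymotrypsin-like active subunit, was among the 3 least variable of the 42, at 11.63 (rat 1) to 11.86 (rat 10) with a median of 11.75 and an SD of 0.063. Psmb7, the trypsin-like active subunit, ranged from 11.45 (rat 3) to 11.74 (rat 10) with a median of 11.60. For both genes rat 10 was highest, and no rat stood apart by Dixon's rule, described further on.

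The cap genes, all 17 of them kept, varied over a similar range. Their SDs were 0.058 to 0.124 (median 0.092) and their spans 1.15-fold to 1.34-fold (median 1.22-fold). Psmd3, a lid subunit, had the smallest SD of all 42 (0.058), at 8.79 in rat 3 to 8.99 in rat 2 with a median of 8.87. Psmd2, a scaffold subunit of the cap's base that receives ubiquitin shuttles, had an SD of 0.066, at 10.95 in rat 8 to 11.16 in rat 2 with a median of 11.05. Both were highest in rat 2.

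**Figure D1:**
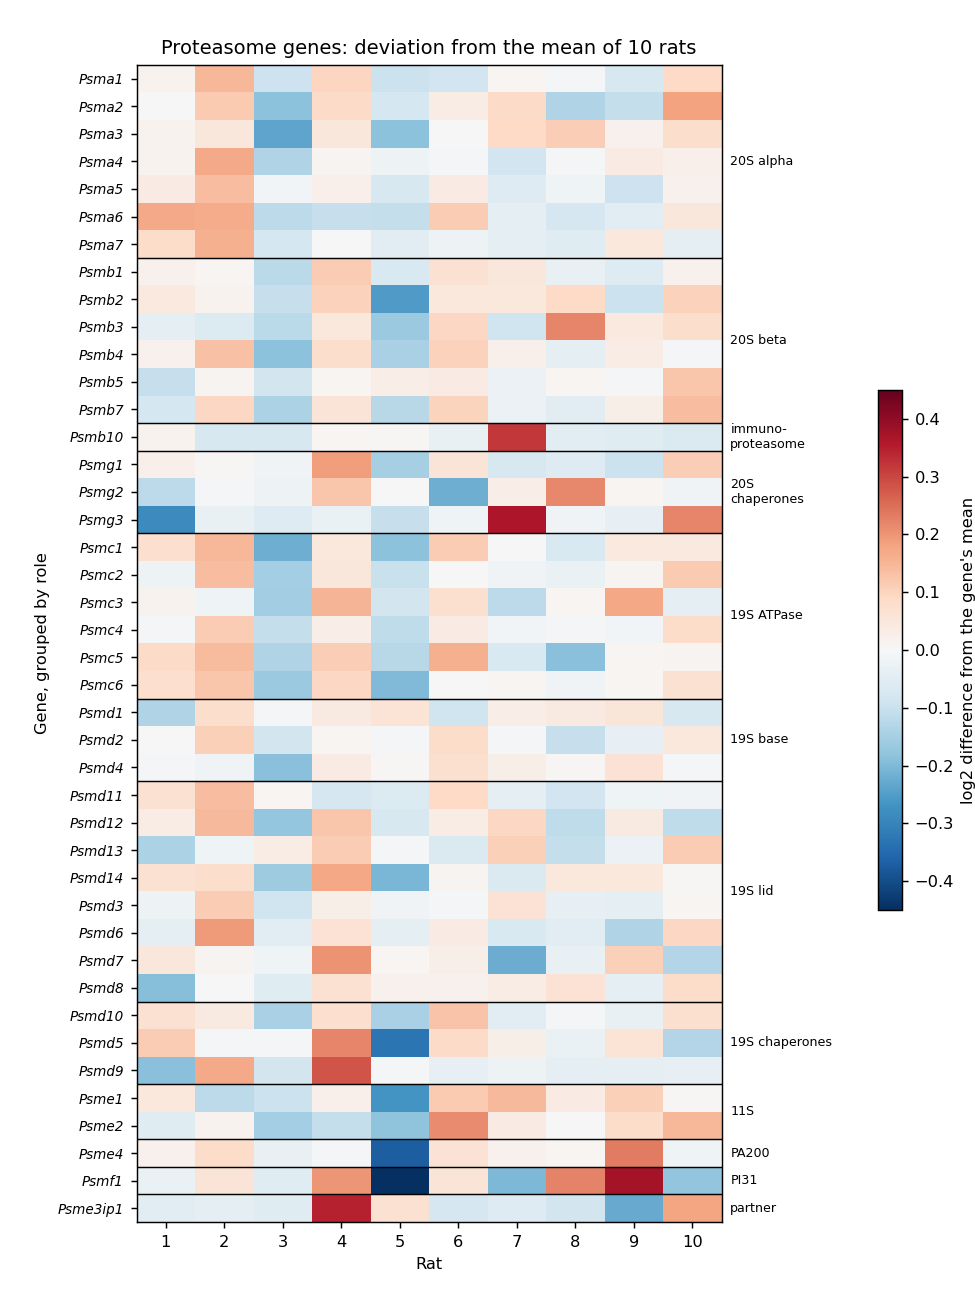
Heat map of the 42 proteasome genes kept, 1 row per gene grouped by role and 1 column per rat; colour is the log2 difference from the gene's mean over 10 rats, from -0.45 (blue) to 0.45 (red). The columns of rats 3 and 5 are mostly blue and that of rat 2 mostly red in the core and cap rows (core median -0.0057 in rat 2 after quantile normalization), while Psmb10 is red in rat 7 and Psmf1 runs from rat 5 (7.69) to rat 9 (8.51).

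The 5 genes with the widest spread lay outside the core and the cap. Their means, 6.43 to 8.33, were also below those of every core and cap gene (8.88 or more). Their spread was not set against that of other genes of their level. Psmf1, which encodes PI31, a proteasome-binding protein first described as an inhibitor, had an SD of 0.24 and ranged from 7.69 in rat 5 through a median of 8.15 to 8.51 in rat 9, a 1.77-fold span. Psmg3, a chaperone of core assembly, ranged from 6.59 in rat 1 through 6.85 to 7.24 in rat 7 (SD 0.18). Psme3ip1, a partner of Psme3, ranged from 6.60 in rat 9 through 6.77 to 7.17 in rat 4 (SD 0.16).

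Psme4, which encodes the activator PA200, ranged from 6.07 in rat 5 through 6.45 to 6.67 in rat 9 (SD 0.15). Psmd5, a chaperone of the cap's base, ranged from 8.00 in rat 5 through 8.34 to 8.55 in rat 4 (SD 0.15). Rat 5 was thus the lowest rat for Psmf1, Psme4 and Psmd5, and rat 9 the highest for Psmf1 and Psme4.

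In the deposited values core and cap genes moved together from rat to rat, which shrank after quantile normalization. In rat 3 all 13 core genes and 15 of 17 cap genes were below their own median, and in rat 5 12 core and 12 cap genes were. Rat 3 was the lowest rat for 8 of 13 core genes, and rat 2 the highest for 5 core and 10 cap genes. The median deviation of the core was 0.12 in rat 2, -0.12 in rat 3 and -0.097 in rat 5, and that of the cap 0.11, -0.11 and -0.062.

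All genes with a mean in the core's range deviated alike, by 0.093, -0.094 and -0.090 in these 3 rats, which are also those of highest and lowest array upper quartile. After quantile normalization, which gives every array the same distribution, the core's median deviations were -0.0057 in rat 2, -0.026 in rat 3 and -0.0058 in rat 5, and its largest was 0.087 in rat 10. Those of the cap were 0.011, -0.029 and 0.032 in rats 2, 3 and 5. Under that scaling the deviations of both sets were smaller in these 3 rats, with the sign turned in rat 2 for the core and in rat 5 for the cap.

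**Figure D2:**
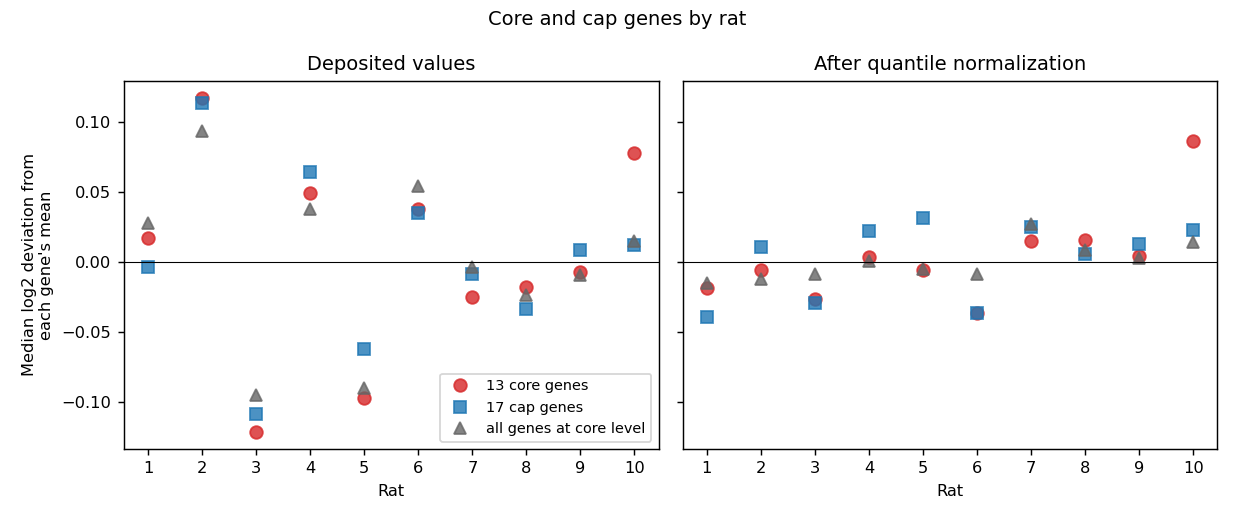
Median log2 deviation from each gene's mean (y) by rat (x) for 13 core genes, 17 cap genes and all 2494 genes with a mean in the core's range, in the deposited values (left) and after quantile normalization (right). On the left the 3 sets share the high of rat 2 (0.12 for the core) and the lows of rats 3 and 5; on the right they lie closer to 0, with the core at 0.087 in rat 10.

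As a description over the same 10 arrays, the median Pearson r over pairs of core genes was 0.52 (78 pairs), over pairs of cap genes 0.37 (136 pairs) and between core and cap 0.47 (221 pairs). Pairs of genes with a mean in the core's range had a median r of 0.28, and all pairs of tested genes 0.11. After quantile normalization the medians were 0.11, 0.088 and 0.13 for core, cap and core with cap, and 0.014 and 0.041 for the other 2 sets. The arrays' overall level moved with these correlations, and its part in them was not tested beyond that rescaling.

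Of the immunoproteasome genes, Psmb8 and Psmb9 were below the filter, at 1.91 to 1.97 (median 1.95) and 2.33 to 2.42 (median 2.38) in the 10 rats. Their differences from rat to rat followed the low end of each array. Psmb8 deviated by 0.026 in rat 1, -0.032 in rat 3 and 0.026 in rat 7, and the median of the 7415 probe sets with a mean under 2.5 by 0.024, -0.036 and 0.027. The table holds no detection call, so these values are given as low and not as absent.

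Psmb10, the inducible counterpart of Psmb7, was the only immunoproteasome catalytic gene kept. It lay at 5.47 to 5.56 in 9 rats and at 5.86 in rat 7, with a median of 5.50. Rat 7 stood apart by Dixon's rule, in which the gap of 1 rat to its nearest neighbour is set against the whole range. The rule picked out a rat in 4 of the 42 genes, against 14.3% of all 15521 probe sets tested and the 5% that chance gives. The other 3 were Psmd4, a ubiquitin receptor of the cap (rat 3 low, 10.20 against a median of 10.40), the lid subunit Psmd8 (rat 1 low, 8.78 against 8.99) and Psme4 (rat 5 low, 6.07 against 6.45).

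Beside the high Psmb10 value, rat 7 had the highest striatal (1.40) and myelin (0.45) marker scores and the lowest excitatory one (-0.21). Its microglial marker score was 0.21 in a range of -0.24 to 0.22, and rat 6, the highest, had a Psmb10 value of 5.51. The log2 difference of 3′ minus 5′ control probe sets was also highest on the array of rat 7, for GAPDH (0.32) and for beta-actin (2.59). The microglial list had 6 of 11 markers kept, with Cx3cr1, Aif1, Itgam, Tyrobp and Trem2 below the filter. The part of these cells, or of the control differences, in the Psmb10 value was not tested. Psmb10 had a median r of -0.15 with the 13 core genes and -0.048 with the 17 cap genes, which were 0.17 and 0.17 after quantile normalization, so the sign turned with the scaling.

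Of the neighbours of the immunoproteasome in antigen presentation, too, some passed the filter and some did not. Over the whole array 8483 of 14217 genes were kept. Of 9 genes of MHC class I antigen processing, B2m, Pdia3, Calr, Canx and Erap1 were kept and Tap1, Tap2, Tapbp and Nlrc5 were below the filter. Tap1, a subunit of the peptide transporter, lay at 2.24 to 2.34, and B2m, the light chain of class I molecules, at 11.2 to 11.7. Of 13 interferon-induced genes on the array 4 were kept (Irf9, Mx2, Ifitm3 and Oasl). At an unadjusted p under 0.05 in the behaviour fits described further on, 0 of the 5 and 0 of the 4 passed for any score.

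The 11S activator subunits Psme1 and Psme2, which interferon also induces, were kept. Psme1 ranged from 8.47 in rat 5 through a median of 8.77 to 8.88 in rat 7, and Psme2 from 7.35 in rat 5 through 7.54 to 7.74 in rat 6. Rat 5 was the lowest for both.

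**Figure D3:**
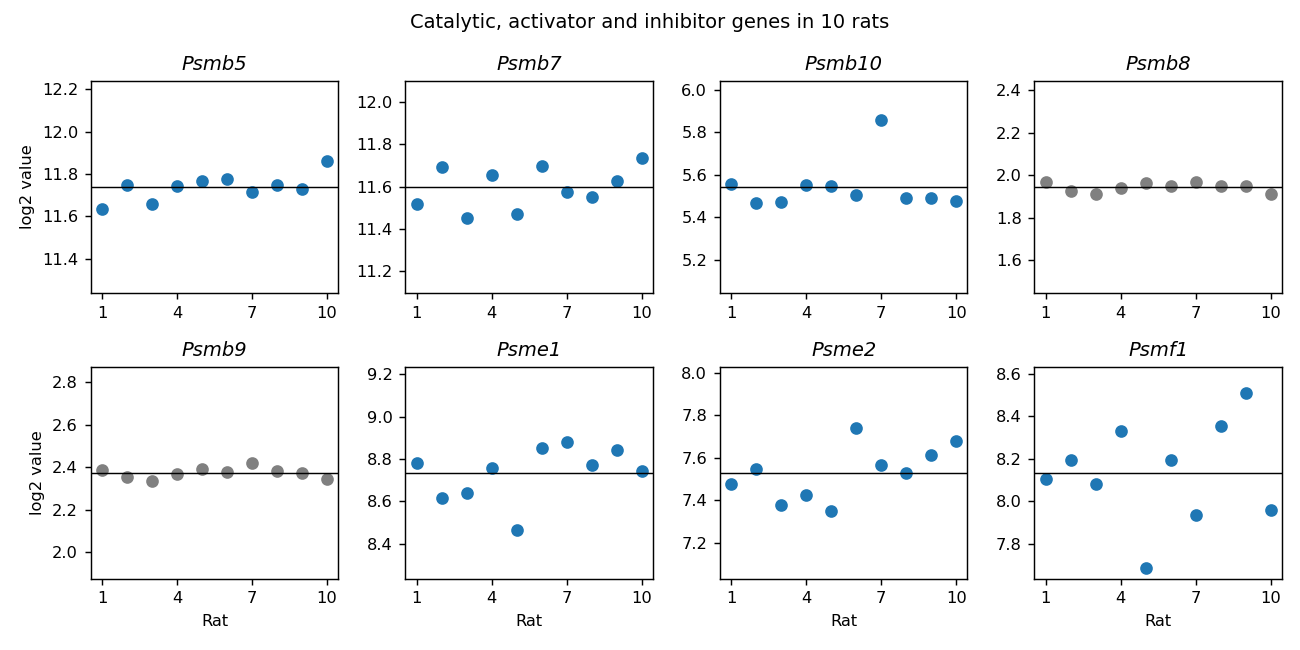
Log2 value (y, each panel spanning 1 log2 unit around the gene's mean, drawn as a line) by rat (x) for 8 genes; blue points passed the filter and grey points, Psmb8 and Psmb9, did not. Psmb10 is flat except for rat 7 (5.86), and Psmf1 spreads from 7.69 to 8.51.

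Of 14 pairs listed for a correlation across rats, 3 could be computed, because the others held a gene below the filter or on a probe set of several symbols. Psmb5 and Psmb7 had a Pearson r of 0.69 (permutation p = 0.0233, adjusted over the 3 pairs 0.0541) and a Spearman rho of 0.65 (permutation p = 0.0493, adjusted 0.111), and r was 0.54 without rats 1 and 10, the farthest from the median of Psmb5. Psme1 and Psme2 were correlated at r = 0.66 (permutation p = 0.0361, 0.0541 after adjustment) with rho at 0.60 (permutation p = 0.0742, 0.111 after adjustment), and r was 0.63 without rats 2 and 5. Psmb7 and its counterpart Psmb10 gave r = -0.17 (permutation p = 0.731, 0.731 after adjustment) with rho at -0.21 (permutation p = 0.563, 0.563 after adjustment), and r was -0.26 without rats 3 and 10. No pair passed the adjusted threshold of 0.05.

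The call for the first 2 of these pairs turned on the setting. With each array centred on its median, Psmb5 with Psmb7 (r = 0.82) and Psme1 with Psme2 (r = 0.72) passed the adjusted threshold. Both also passed without rat 2 (0.71 and 0.72) and without rat 4 (0.70 and 0.72), and Psmb5 with Psmb7 alone without rat 5 (0.86). With rats left out in turn, the lowest r was 0.56 for Psmb5 with Psmb7 and 0.50 for Psme1 with Psme2. Over all pairs of core genes the median r was 0.52 in the deposited values and 0.11 after quantile normalization. Whether either pair differs from other pairs of genes was not tested.

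The question of the study was then put to the proteasome genes: the slope of each gene's log2 value on each score, per SD of the score, was taken from a limma fit over all 15521 probe sets. Against the Benjamini-Hochberg adjusted threshold of 0.05, 0 of the 42 genes passed for any of the 5 scores, and 0.0% of all probe sets did. At an unadjusted p under 0.05 there were 0 for startle, 0 for locomotion, 0 for sugar feeding, 2 for prepulse inhibition and 6 for the plus maze.

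For startle, 0 of the 42 had a positive slope at an unadjusted p under 0.05 and 0 a negative one, against 1.28% and 4.3% of all probe sets. The genes nearest to that p were Psmg3, with 0.10 ± 0.049 (SE, n = 10) log2 per SD (limma p = 0.0631, adjusted 0.808), and the alpha subunit Psma5, with -0.050 ± 0.023 (limma p = 0.0552, adjusted 0.808). Psma5 lay between 10.79 in rat 9 and 11.02 in rat 2, the rat of lowest startle score (363), with a median of 10.89. Psmg3 was lowest in rat 1, which also has a low score (394), and with each rat left out in turn its slope was 0.053 to 0.12.

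For locomotion, 0 genes were positive and 0 negative at that p, against 2.31% and 0.619% of all probe sets. Psmd5 had 0.089 ± 0.042 (SE, n = 10; limma p = 0.0581, adjusted 1.00) and Psme2 -0.061 ± 0.039 (limma p = 0.147, adjusted 1.00). For sugar feeding the counts were again 0 and 0, against 1.45% and 0.677%, with Psmd5 at 0.083 ± 0.043 (SE, n = 10; limma p = 0.0788, adjusted 1.00) and Psmb5 at -0.033 ± 0.025 (limma p = 0.219, adjusted 1.00). Rat 5, the lowest for Psmd5, had the lowest sugar feeding score (0.0), and the Psmd5 slope on that score was 0.017 to 0.099 with each rat left out in turn.

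For prepulse inhibition, 0 genes were positive and 2 negative, against 1.97% and 5.44% of all probe sets, so the share of negative genes was near the background. Psma6, an alpha subunit, had -0.086 ± 0.030 (SE, n = 10; limma p = 0.0152, adjusted 0.630). It ranged from 11.22 in rat 3 through a median of 11.29 to 11.51 in rat 1, and its highest values were those of rats 1 (11.51) and 2 (11.50), which have the lowest scores (6.80 and 10.7). Without rat 1 the count of negative and positive genes together was 1.

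The lid subunit Psmd11, which links lid and base, had -0.063 ± 0.023 (SE, n = 10; limma p = 0.0192, adjusted 0.630) and ranged from 10.79 in rat 8 through 10.86 to 11.02 in rat 2. Its other kept probe set correlated with it at r = 0.58 over the 10 rats, and its slopes had the same sign for 5 of 5 scores. The nearest positive gene was Psmg2, a chaperone of core assembly, with 0.071 ± 0.035 (limma p = 0.0692, adjusted 0.689), at 5.60 in rat 6, 5.81 in the median rat and 6.04 in rat 8.

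For the plus maze score, in 7 rats, 0 genes were positive and 6 negative, against 1.2% and 5.74% of all probe sets. The 6 were the activator genes Psme4, Psme1 and Psme2, the core genes Psma3 and Psmb2 and the ATPase gene Psmc6. Psme4 had -0.14 ± 0.030 (SE, n = 7; limma, adjusted p = 0.558), Psmb2 -0.11 ± 0.034 (adjusted p = 0.657), Psma3 -0.095 ± 0.027 (adjusted p = 0.652) and Psme2 -0.087 ± 0.033 (adjusted p = 0.685). The nearest positive gene was the lid subunit Psmd7, with 0.048 ± 0.054 (limma p = 0.396, adjusted 1.00).

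None of these 6 kept an unadjusted p under 0.05 without rat 5, whose plus maze score was 60.3 against 0.0 to 20.2 in the other 6 rats. Rat 5 was also the lowest of those 7 rats for Psme4 (6.07 against 6.42 or more), Psmb2 (9.59 against 9.86 or more), Psma3 (9.19 against 9.40 or more) and Psme2 (7.35 against 7.42 or more). Without rat 5, 0 of the 42 genes were negative and 2 positive at an unadjusted p under 0.05, against 38 negative and 108 positive of all 8483 genes. The 2 were Psmd7 (0.12, limma p = 0.0297, adjusted 1.00) and the ATPase gene Psmc3 (0.080, limma p = 0.0493, adjusted 1.00). For the 6 genes named first, the slopes changed as follows. Without that rat the slopes were -0.016 for Psme4, -0.017 for Psma3, 0.017 for Psmb2, 0.014 for Psmc6, 0.0077 for Psme1 and -0.066 for Psme2. These are per SD of the score over the 6 rats left, so their sizes are not in the unit of the slopes over 7 rats. The 2 further kept probe sets of Psme4 correlated with the chosen one at r = -0.0096 and -0.12 over the 10 rats, so the probe sets of this gene disagreed.

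**Figure D4:**
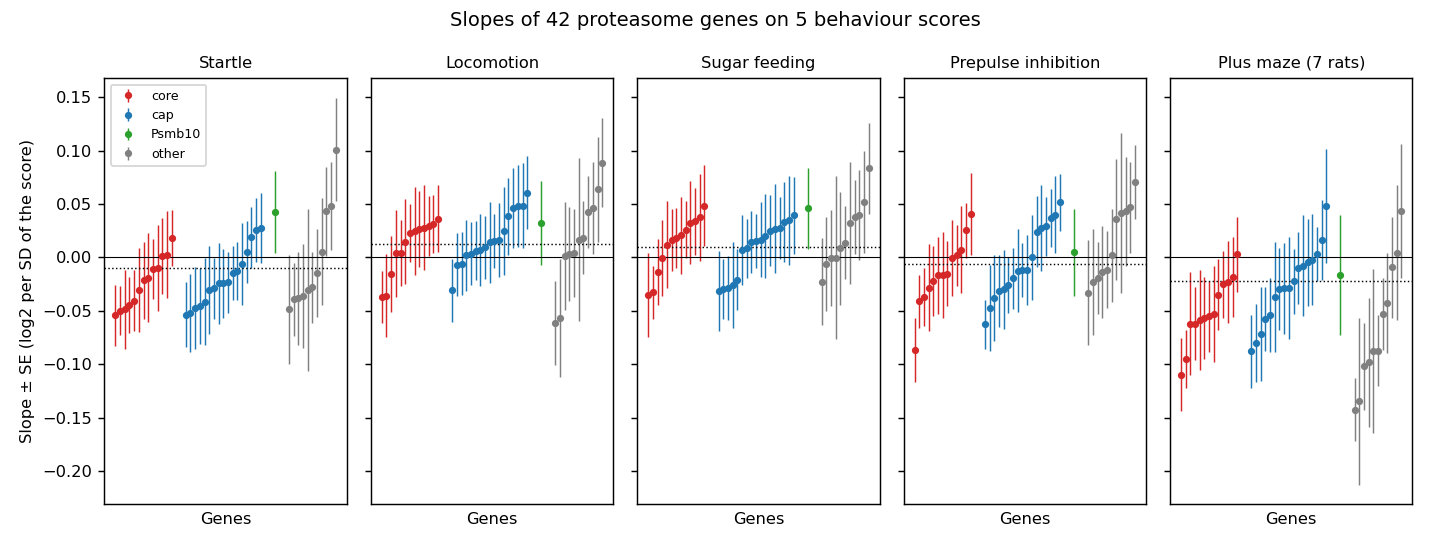
Slopes (y, log2 per SD of the score, with SE bars) of the 42 genes for 5 scores, sorted within core (red), cap (blue), Psmb10 (green) and the other genes (grey); the dotted line is the median of all 8483 genes. In these deposited values most core and cap genes lie on the same side of 0 as that median. After quantile normalization (not drawn) the core median turns for startle, sugar feeding and prepulse inhibition and the cap median for all 5 scores. The median of all genes then turns too, for every score but the plus maze. In the plus maze panel Psme4 is lowest at -0.14.

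In the deposited values core and cap genes leaned the same way for each score, as did all genes. After quantile normalization the core median turned for startle, sugar feeding and prepulse inhibition and the cap median for all 5 scores. The median of all 8483 genes also turned, for every score but the plus maze. It was then 0.014 for startle, -0.0058 for locomotion, -0.00094 for sugar feeding, 0.012 for prepulse inhibition and -0.0056 for the plus maze. The next values are those of the deposited data. The median slopes of core, cap and all 8483 genes were -0.021, -0.024 and -0.0097 for startle, 0.023, 0.014 and 0.012 for locomotion, 0.019, 0.015 and 0.010 for sugar feeding, -0.016, -0.012 and -0.0063 for prepulse inhibition, and -0.055, -0.028 and -0.022 for the plus maze. Of the 42 genes 12, 34, 29, 17 and 6 had a positive slope for the 5 scores in that order, against 41.3%, 64.7%, 61.4%, 44.2% and 32.6% of all genes.

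After quantile normalization those counts were 25, 18, 22, 31 and 17, with the majority of the 42 on the other side of 0 for startle, locomotion and prepulse inhibition. The shares of all 8483 genes with a positive slope were then 63.5%, 43.0%, 48.7%, 61.9% and 44.5%. The core medians then were 0.010, 0.0034, -0.00054, 0.0062 and -0.014, and the cap medians 0.0070, -0.0055, -0.0016, 0.018 and 0.011. Under that scaling 4 of the 42 genes were positive and 1 negative for prepulse inhibition at an unadjusted p under 0.05, and 0 passed after adjustment. Of all 8483 genes 397 were positive and 161 negative at that unadjusted p. Without rat 5 the sugar feeding medians were -0.0086 for the core and -0.011 for the cap. On the plus maze score the core's median was negative under both scalings and -0.0019 without rat 5.

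Psmb10 had slopes of 0.042 ± 0.038 on startle, 0.032 ± 0.039 on locomotion, 0.046 ± 0.038 on sugar feeding and 0.0048 ± 0.041 on prepulse inhibition (SE, n = 10), and -0.016 ± 0.056 on the plus maze score (SE, n = 7), with limma p from 0.256 to 0.907. Without rat 7 its slope was -0.0082 on startle and -0.0037 on sugar feeding, and on the plus maze score 0.025, so all 3 signs turned without that rat. The difference between Psmb10 and the constitutive genes in these slopes was not tested.

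Among the partners of the proteasome, 28 of 36 listed genes of the ubiquitin pathway were on the array and all 28 were kept; 0 passed the adjusted threshold for any score. At an unadjusted p under 0.05 there was 1 for startle, 0 for locomotion, 0 for sugar feeding, 2 for prepulse inhibition and 5 for the plus maze. By direction these were 1 negative gene of 28 for startle (4.3% of all probe sets), 1 positive (1.97%) and 1 negative (5.44%) for prepulse inhibition and 5 negative (5.74%) for the plus maze. Ecpas, an adaptor that holds core and cap together, had -0.088 ± 0.037 on startle (SE, n = 10; limma p = 0.0398, adjusted 0.808) and -0.087 ± 0.038 on prepulse inhibition (limma p = 0.0414, adjusted 0.662). Adrm1, a ubiquitin receptor of the cap, had 0.13 ± 0.049 on prepulse inhibition (limma p = 0.0209, adjusted 0.630) and ranged from 8.70 through 9.14 to 9.39.

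On the plus maze score the 5 were all negative. The proteasome-associated thioredoxin Txnl1 had -0.13 ± 0.036 (SE, n = 7; limma, adjusted p = 0.652) and the shuttle receptor Ubqln2 -0.092 ± 0.030 (adjusted p = 0.680). The other 3 were Pomp, the maturation factor of the core, Nfe2l2, a transcription factor of the antioxidant response, and the shuttle receptor Ubqln4. Without rat 5 none of the 28 had an unadjusted p under 0.05 on this score. The slopes, per SD of the score over the rats left, were then -0.014 for Txnl1, -0.031 for Ubqln2, -0.023 for Pomp, -0.053 for Nfe2l2 and -0.013 for Ubqln4.

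Where a gene had several kept probe sets, they did not always track each other. The 2 further probe sets of the ATPase gene Psmc6 correlated with the chosen one at r = 0.81 and 0.53 over the 10 rats, that of Psmd7 at 0.69 and that of Psmd14, the deubiquitinase of the lid, at 0.48. Of the 46 genes 9 had more than 1 probe set of a single symbol and 5 more than 1 kept. The 4 below the filter were Psmb8, Psmb9, Psmc3ip and the core chaperone Psmg4 (2.83 to 3.17).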

How the data were processed

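RNA of 10 rats was hybridised to 1 array each. The deposited values are log2 summaries per probe set, made by the authors with GCRMA in R 2.6.2, per the submitters' processing notes; no version of GCRMA is named in the sources used here. Of 31099 probe sets 57 array controls were left out, and the 50% of the others with the highest mean (15521) were kept. Symbols came from the platform annotation; 20826 probe sets had 1 symbol, 436 several and 9780 none. Slopes came from lmFit and eBayes of limma 3.58.1, run in R 4.3.3 (score scaled to an SD of 1, two-sided, Benjamini-Hochberg over all kept probe sets). The fit was also run on simulated independent probe sets with planted slopes larger than that of any proteasome gene here. That run therefore says nothing about finding slopes of the size reported. Each fit took the SD of the score over its own rats, also where a rat was left out. Correlations used permutation tests with 100000 resamples. P-values measure the spread between these rats, and the number of arrays limits the precision.

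The genes and lists were chosen with earlier results of these data known. Named genes were, per score and direction, up to 4 members of smallest p among those under an unadjusted 0.05, or the nearest one where there was none; Psmb5 to Psmb10, Psme1 and Psme2; the 5 of largest and 3 of smallest SD; members picked out by Dixon's rule; up to 2 pathway genes per score; and members below the filter. Psmc3, Psmc6, Psmd14, and among the pathway and antigen genes Pomp, Nfe2l2, Ubqln4, Tap1 and B2m, were named after their values were seen. Promoter windows came from RefSeq (GRCr8). Alternatives changed the normalization, filter, score scale, test, covariates, probe set choice and rats. The fit with 4 scores in 1 model had no counterpart for the plus maze.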

Additional observations from a re-analysis of the deposited data

Results flagged for a closer look

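In 4 of the 42 proteasome genes 1 rat lay far from the other 9 (Dixon's rule), where chance gives about 5% of genes and all tested probe sets had 14.3%. Psmb10 was high in rat 7 (5.86), Psmd4 low in rat 3 (10.20), Psmd8 low in rat 1 (8.78) and Psme4 low in rat 5 (6.07), in log2. The 4 genes have 4 different outlying rats. Other measures of these rats are given above, and their part in the 4 values was not tested.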

How the results depend on the processing

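No paired analysis was possible because there is only 1 condition, with 1 array for each rat. Under every alternative run 0 members passed the adjusted threshold for a score. Of the class medians, counts and spreads set against an alternative, 538 stayed near the main value and 53 moved. The 538 include small medians whose sign turned. With quantile normalization these were, for example, the core on startle (-0.021 to 0.010) and the cap on prepulse inhibition (-0.012 to 0.018). Of the results for single genes and pairs, 315 kept their sign and side of the threshold, 7 newly passed it and 3 turned sign. Part of this agreement was fixed in advance, since a changed filter or test leaves each gene's slope, and so its sign, as it was. The number of members at an unadjusted p under 0.05 was, for startle, 1 (main 0) with quantile normalization, the unmoderated Pearson test, the trend and robust fit, the striatal covariate, the upper quartile covariate and the gene mean, and 2 without a filter. For locomotion it was 1 (main 0) with quantile normalization and the striatal, spike-in and upper quartile covariates, and for sugar feeding 1 (main 0) without a filter and with the 4 scores in 1 model. For prepulse inhibition it was 5 (main 2) with quantile normalization and 1 with median centring, the 4 scores in 1 model, the striatal covariate and the gene mean, and for the plus maze 1 (main 6) with quantile normalization and with ranks. With rats left out in turn it was 0 to 2 for startle (above 0 without rat 1, 2, 6 or 9), locomotion (without rat 1, 4, 5, 6, 9 or 10) and sugar feeding (without rat 3 or 5), 1 to 3 for prepulse inhibition (1 without rat 1) and 2 to 7 for the plus maze (2 without rat 5). The counts over all 8483 genes changed with the setting too. For the plus maze, 74 were positive and 578 negative in the main fit. They were 91 and 293 with quantile normalization, 46 and 754 with median centring, and 108 and 38 without rat 5. For most of the other settings the share over all genes is not given here, so those counts of members cannot be read against a background. Median slopes moved to 0.022 (core) and 0.012 (cap) for startle and -0.021 (core) for locomotion with the upper quartile covariate, which was chosen after seeing the data. They moved with the 4 scores in 1 model to -0.028 (core) and 0.077 (Psmb10) for locomotion and 0.098 (Psmb10) for startle, and with quantile normalization to -0.014 (core) and 0.011 (cap) for the plus maze. Leaving out rats gave -0.0082 to 0.058 for Psmb10 on startle, -0.0037 to 0.063 for Psmb10 on sugar feeding and -0.067 to -0.0019 for the core on the plus maze. Quantile normalization lowered the median SD to 0.065 (core) and 0.067 (cap) and the median r to 0.11 (core) and 0.13 (core with cap). Signs turned for Psmb5 on sugar feeding (0.011 with the 4 scores in 1 model), for Psmb2 on the plus maze (-0.13 to 0.017 with rats left out, the latter without rat 5) and for the r of Psmb7 with Psmb10 (0.14 with quantile normalization). The pairs past the adjusted threshold were 2 with median centring and 0 to 2 with rats left out. Why these values moved was not tested. With 10 arrays, and 7 for the plus maze, a slope of the size seen here cannot be told from 0 after adjustment over 15521 probe sets.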
